A study of Homo sapiens with 12 samples.

Results

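Mitochondria keep a protein quality control system of their own, and the mRNAs of 10 genes that belong to it were examined here: HSPD1, HSPE1, HSPA9, TRAP1, DNAJA3, LONP1, CLPP, CLPX, YME1L1, and AFG3L2. They were picked by name, as chaperones and proteases of mitochondria, from 60708 gene rows that are the same in both count tables. Each name matched 1 row in each table, and all 10 passed the filter on low counts in both comparisons. The data are RNA-seq gene counts of HCT116 cells, an established human colorectal carcinoma line of epithelial origin, with the wild type genotype in every group. For 24 h, cells received oligomycin A (OA), which blocks the ATP synthase of mitochondria, or tunicamycin (TN), which blocks N-linked glycosylation in the endoplasmic reticulum (ER). The labels give 5 µg/mL for both agents, while the study's methods name another concentration for OA. Each agent had 3 libraries and 3 DMSO libraries of its own, marked DMSO (OA) and DMSO (TN) here, so that the 4 groups hold 12 libraries and share no control. The labels call the replicates biological but do not say whether they came from separate cultures on separate days, and 1 cell line was used throughout.

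Nearly all mitochondrial proteins are made in the cytosol, pass the mitochondrial membranes unfolded, and are folded inside by dedicated chaperones. Proteins that fail to fold are degraded by ATP-dependent proteases in the matrix and in the inner membrane. When unfolded proteins accumulate in the matrix, cells can raise nuclear transcription of these chaperones and proteases, a program called the mitochondrial unfolded protein response (UPRmt). In mammalian cells, ATF5, DDIT3 (CHOP), CEBPB, ATF4, and HSF1 are transcription factors that have been connected to it. The comparison of each agent with its DMSO libraries therefore asks whether the mRNAs of these chaperones and proteases were higher after stress.

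HSPD1 and HSPE1 are shown by sequence first, because they encode the partners of the same chaperonin and because their start sites face away from each other on chromosome 2. In the RefSeq promoter table of build GRCh38.p14, HSPD1 starts at base 197499840 on the minus strand and HSPE1 at base 197500379 on the plus strand, 539 bases apart. In the Gencode 44 annotation, HSPD1 spans chr2:197486584-197516737 and HSPE1 chr2:197500140-197503449, so that the longest HSPD1 models begin beyond HSPE1. The other members lie at chr5:138553756-138575675 (HSPA9), chr16:3651639-3717553 (TRAP1), chr16:4425805-4456775 (DNAJA3), chr19:5691834-5720572 (LONP1), chr19:6361531-6370242 (CLPP), chr15:65148219-65185342 (CLPX), chr10:27110111-27155266 (YME1L1), and chr18:12328944-12377227 (AFG3L2). Of the 10 members, 8 matched an entry of that table by symbol, and CLPP and YME1L1 did not. The 250 bases before each start are given 5′ to 3′ on the strand of the gene. The HSPD1 window is chr2:197499841-197500090 and the HSPE1 window is chr2:197500129-197500378. Capitals mark the match to the heat shock element letters described next.
HSPD1: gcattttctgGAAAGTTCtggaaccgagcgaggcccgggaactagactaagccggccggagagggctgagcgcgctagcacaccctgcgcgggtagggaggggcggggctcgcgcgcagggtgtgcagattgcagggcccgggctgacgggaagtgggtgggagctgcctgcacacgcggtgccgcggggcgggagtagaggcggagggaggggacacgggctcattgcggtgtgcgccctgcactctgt
HSPE1: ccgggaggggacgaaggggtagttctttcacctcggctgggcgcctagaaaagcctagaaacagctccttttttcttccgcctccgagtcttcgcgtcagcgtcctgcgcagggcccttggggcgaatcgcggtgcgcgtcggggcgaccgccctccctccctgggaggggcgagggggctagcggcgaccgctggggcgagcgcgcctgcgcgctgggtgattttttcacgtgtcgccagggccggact

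Both strands were searched for 2 motifs in windows that run from 250 bases before to 50 bases after each start. The paired heat shock element GAANNTTC, to which HSF1 binds in repeated units, was found in HSPD1 alone among the 8 matched members, with its first base at -240, and in 6.77% of 35116 promoters in the table. The HSPD1 match lies between the starts of HSPD1 and HSPE1, beyond the reach of the HSPE1 window. TGATGNAA, the letters of the CARE site that ATF4 family factors bind, were in none of the 8 windows and in 3.62% of all promoters. A match is a run of letters in a window, and binding was not measured in these data.

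The libraries held 9884124 to 24983573 counts. RN7SL1, the RNA of the signal recognition particle, took 6.02% to 8.11% of the counts in the 6 DMSO libraries and 8.40% to 17.9% in the 6 treated ones. Libraries of 1 group also differed in how their counts depended on the GC content of genes. The Spearman correlation across genes between a library's deviation from the gene means and GC content ran from -0.75 to 0.76, with OA replicate 2 at 0.55 and TN replicate 1 at 0.76. All 5 epithelial markers were expressed in every library, with a summed level of 3010 to 4280 CPM, the count normalized to library size, in DMSO (OA), 3440 to 6560 in OA, 3120 to 3970 in DMSO (TN), and 3860 to 6540 in TN. Of 8 markers of leukocytes, fibroblasts, and endothelium, CD3E was at 0 in all libraries and only COL1A1 reached 1 CPM, with 1.15 to 2.19 CPM in DMSO (OA), 3.42 to 12.4 in OA, 1.31 to 3.505 in DMSO (TN), and 1.38 to 4.11 in TN. The summed level of the other 7 was at most 0.737 CPM. CDH1 and CLDN4 were the epithelial markers that rose, by 1.81 and 1.59 in OA and 1.69 and 1.70 in TN on the log2 scale. The part of these differences in the results was not tested, except where values with a GC offset are given.

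With the main test, the quasi-likelihood test of edgeR with p-values adjusted over all genes by the Benjamini-Hochberg method, 1 of the 10 members passed an adjusted p of 0.05 in OA and 2 of 10 in TN, all lower than in DMSO. Over all genes, 4.48% passed in OA (1.72% lower) and 6.99% in TN (3.34% lower). None of the 10 rose in either comparison by this test. At an unadjusted p under 0.05, LONP1 was higher in both, and DESeq2, which called 5.84% of genes higher in OA, called LONP1 there with an adjusted p of 0.0485. The members that fell were HSPE1 with OA and TN and HSPD1 with TN, which together encode the matrix chaperonin. In bulk RNA, fewer cells with a transcript and less of it per cell cannot be told apart. The median log2 fold change of the members was -0.30 in OA and -0.10 in TN, beside medians of -0.02 and -0.03 over all tested genes. Treated and DMSO libraries did not overlap for 4 of the 10 members in OA and for 4 of the 10 in TN. Without any test, 31.8% of all genes in OA and 32.6% in TN were free of overlap, so the members' shares lay near the background.

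**Figure D1:**
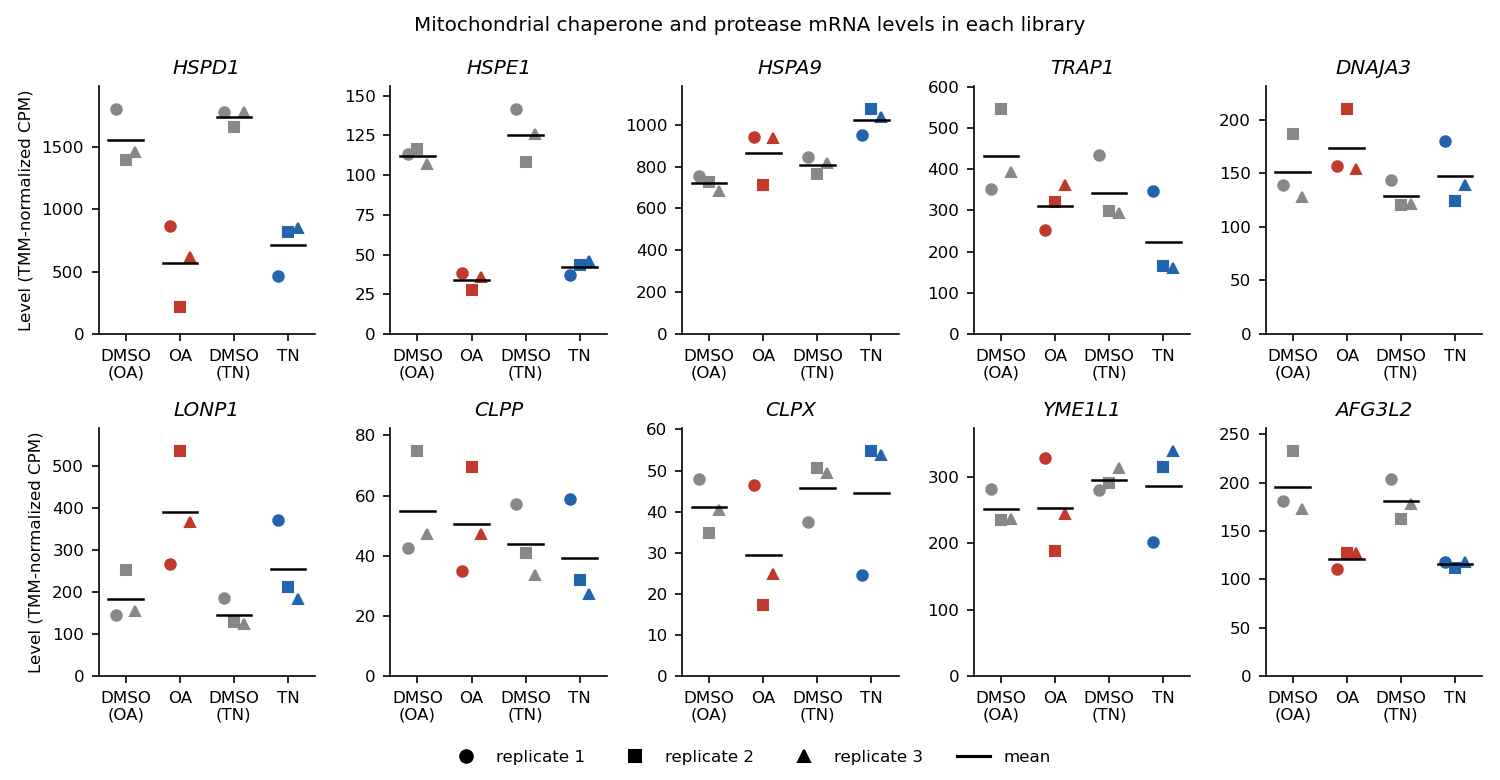
Level of each member in each library, in CPM after TMM normalization, on linear axes that start at 0; points are libraries, shapes are replicate numbers, and bars are group means. HSPD1, HSPE1, and AFG3L2 were lower in every treated library than in any DMSO library of the same experiment.

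HSPD1 encodes HSP60, the subunit of the barrel in which matrix proteins fold, and had the highest mean level per kb of transcript of the 10 members in each of the 4 groups. In DMSO (OA), its levels were 1805.7, 1395.7, and 1457.1 CPM, and in OA they were 866.7, 213.9, and 616.8 CPM. All OA libraries were below all DMSO libraries, and OA replicate 2 was far below the other two. In DMSO (TN), HSPD1 stood at 1780.7, 1657.4, and 1777.3 CPM, and in TN at 463.1, 814.8, and 852.2 CPM. The groups did not overlap, and TN replicate 1 was the lowest. The log2 fold change was -1.46 ± 0.46 (SE) in OA, with an edgeR adjusted p of 0.107, and -1.29 ± 0.26 in TN, with an edgeR adjusted p of 0.0303. HSPD1 therefore fell with TN, and in OA its fitted change was of similar size with a wider error. Leaving out OA replicate 2 gave -1.05 and an adjusted p of 0.0426, and leaving out OA replicate 1 gave -1.92 and 0.0431, while the other 4 libraries left out in turn gave adjusted p of 0.223 to 0.310. In TN, the call was kept without TN replicate 1 (-1.02, adjusted p = 0.00527) and lost without each of the other 5 libraries, with log2 fold changes of -1.46 to -1.24 and adjusted p of 0.0851 to 0.150.

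HSPE1 encodes HSP10, the lid that closes the HSP60 barrel. Its levels were 113.0, 116.2, and 107.2 CPM in DMSO (OA) and 38.4, 27.5, and 36.2 CPM in OA. In DMSO (TN) they were 141.9, 108.2, and 125.7 CPM, against 37.2, 43.3, and 46.1 CPM in TN. The treated libraries lay close together and well below the DMSO libraries in both experiments. HSPE1 fell with OA by 1.72 ± 0.24 (SE) on the log2 scale, a 3.29-fold lower level with an edgeR adjusted p of 0.0168. With TN it fell by 1.57 ± 0.21, 2.97-fold, with an edgeR adjusted p of 0.00783. The call was lost in OA without DMSO (OA) replicate 1, 2, or 3 or OA replicate 3, with adjusted p of 0.0618 to 0.133, while the log2 change stayed between -1.83 and -1.59. In TN it was lost without DMSO (TN) replicate 2 (0.0525) or 3 (0.0640).

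Members were ranked by their group mean per kb of canonical transcript, where HSPE1 held rank 2 in both DMSO groups, at 201 ± 8.18 (SD, n = 3) and 225 ± 30.2 CPM per kb. In DMSO (OA), its range of 193 to 209 lay within that of TRAP1 (158 to 246), and HSPE1 was at rank 3 in replicate 2. In OA it held rank 6 at 61.1 ± 10.3 CPM per kb, and in TN rank 5 at 75.8 ± 8.20. A length without the bases that HSPE1 shares with the readthrough gene HSPE1-MOB4, chosen after the values had been seen, left rank 2 in both DMSO groups (307 ± 12.5 and 343 ± 46.1 CPM per kb) and gave rank 5 in OA (93.3 ± 15.7) and rank 3 in TN (116 ± 12.5). Only the length of HSPE1 was changed. In the annotation, 38.96% of canonical TRAP1 bases and 23.86% of those of AFG3L2 face exons on the other strand. The counted strand is not given, so the rank of HSPE1 beside these genes is uncertain. The mean of HSPD1 held rank 1 in each group, at 252 ± 147 CPM per kb in OA and 316 ± 95.6 in TN, against 692 ± 98.5 and 774 ± 31.3 in the DMSO groups. In OA, HSPD1 was followed by HSPA9, TRAP1, and LONP1 by mean, at 196 ± 29.6, 140 ± 24.9, and 127 ± 44.2 CPM per kb. The range of HSPD1 there, 95.3 to 386 CPM per kb, overlapped those of HSPA9 (162 to 214), TRAP1 (113 to 162), and LONP1 (86.5 to 174), and HSPD1 was at rank 4 in OA replicate 2. The next places, DNAJA3, HSPE1, and YME1L1, lay at 64.4, 61.1, and 60.5 CPM per kb, which is within their spread. In TN the order by mean was HSPD1, HSPA9, TRAP1, LONP1, and HSPE1. The ranges of HSPD1 (206 to 380) and HSPA9 (215 to 245) overlapped, with HSPA9 above HSPD1 in TN replicate 1, and so did those of the last 3. CLPP and CLPX were the lowest members in every group, with means of 6.29 to 22.8 CPM per kb.

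Because HSPD1 and HSPE1 start 539 bases apart, their ratio was compared within each library, where scaling between libraries plays no part. The log2 ratio of HSPD1 to HSPE1 counts was 4.0, 3.59, and 3.76 in DMSO (OA) and 4.49, 2.96, and 4.09 in OA. In DMSO (TN) it was 3.65, 3.94, and 3.82, and in TN 3.64, 4.23, and 4.21. The groups overlapped in both experiments, and the lowest ratio was that of OA replicate 2. The difference was 0.06 in OA (two-sided exact permutation p = 0.9) and 0.22 in TN (p = 0.4). With 3 libraries against 3, this test cannot give a p below 0.1. The 8 ratio tests were adjusted together, which gave 0.9 and 0.8 for these 2. Leaving out single libraries moved the OA difference from -0.26 to 0.51.

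Some limits of counting bear on this pair. In the Gencode 44 annotation, 34.47% of the bases of the canonical HSPE1 transcript are shared with the readthrough gene HSPE1-MOB4 on the same strand, and that gene had 0 counts in all 12 libraries. The counter assigns a read to a gene only when it overlaps no other, so HSPE1 counts come from its remaining bases. Processed pseudogenes of HSPD1 had 18 rows with 0.320% of the counts of HSPD1 over all libraries, and those of HSPE1 had 26 rows with 1.55%.

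HSPA9 encodes mortalin, the mitochondrial HSP70 that pulls proteins through the inner membrane and folds them in the matrix. Its levels were 752.8, 727.2, and 683.4 CPM in DMSO (OA) and 943.3, 713.9, and 936.7 CPM in OA, so that replicate 2 of OA fell among the DMSO libraries. In the TN experiment they were 844.1, 766.2, and 818.9 CPM in DMSO and 948.8, 1077.5, and 1035.9 CPM in TN, with no overlap. The log2 fold change of 0.26 ± 0.22 in OA (edgeR adjusted p = 0.504) and of 0.33 ± 0.17 in TN (0.283) did not pass the test. HSPD1 and HSPA9, with GC contents of 41.69% and 42.08%, were set against each other within libraries, a ratio chosen after the values had been seen. The log2 ratio of HSPD1 to HSPA9 was 1.26, 0.94, and 1.09 in DMSO (OA) and -0.12, -1.74, and -0.60 in OA. It was 1.08, 1.11, and 1.12 in DMSO (TN) and -1.03, -0.40, and -0.28 in TN. Counts of HSPD1 exceeded those of HSPA9 in each DMSO library and were below them in each treated library.

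**Figure D2:**
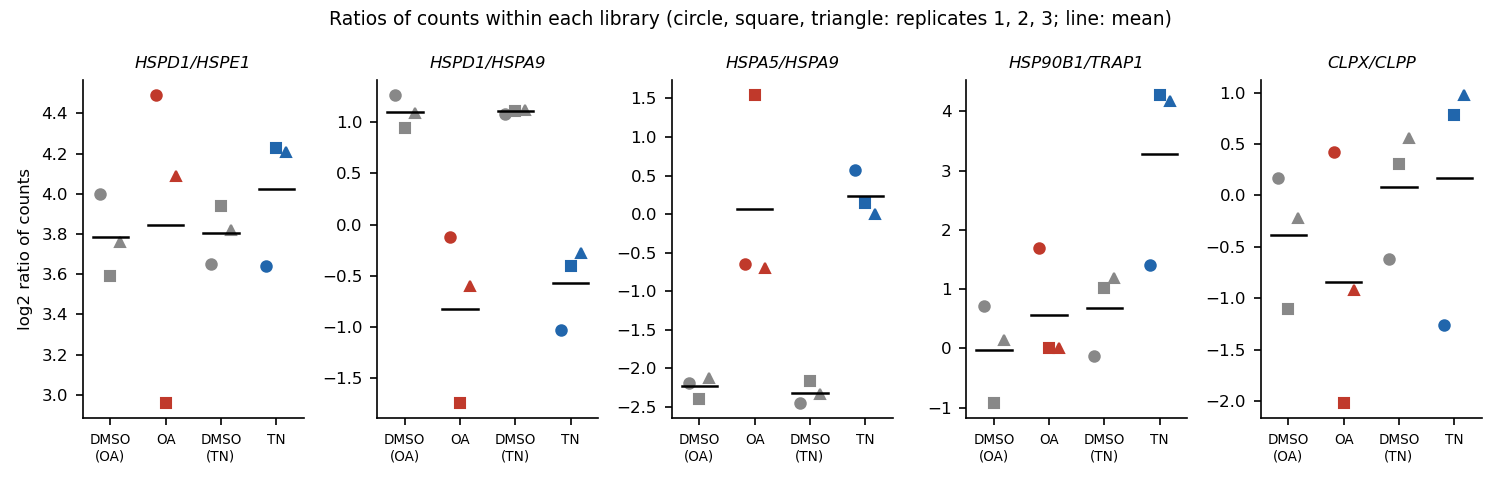
Log2 ratio of the counts of 2 genes within each library for 5 pairs, on axes that do not start at 0; points are replicates and bars are group means. HSPD1/HSPE1 overlapped between groups, while HSPD1/HSPA9 was positive in all DMSO libraries and negative in all treated libraries.

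TRAP1, the mitochondrial HSP90, had levels of 352.2, 546.6, and 393.5 CPM in DMSO (OA) and 251.0, 320.5, and 360.6 CPM in OA. In DMSO (TN) they were 433.4, 297.1, and 293.8 CPM, and in TN 346.8, 164.4, and 160.5 CPM. The groups overlapped in both experiments, and replicate 1 was the highest library on both sides of the TN comparison. The log2 fold change was -0.47 ± 0.26 in OA (edgeR adjusted p = 0.319) and -0.61 ± 0.35 in TN (0.338). Without DMSO (OA) replicate 2, the OA value was -0.22, with an edgeR adjusted p of 0.647. In the TN experiment, libraries of the same replicate number deviated together, and each TN library was below the DMSO library of its number, by -0.32, -0.85, and -0.87 on the log2 scale. With the replicate number as a block, TRAP1 was lower in TN, at -0.68 ± 0.16 with an edgeR adjusted p of 0.0156. The block gave -0.46 ± 0.20 in OA, with an edgeR adjusted p of 0.113. Without TN replicate 1, the fit with no block gave -1.03 and 0.0266. The annotation has 28.5% of all TRAP1 exon bases, and 38.96% of its canonical transcript, facing exons of DNASE1 on the other strand. Which strand was counted is not given in the sources used here.

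DNAJA3 (TID1), a J-domain protein that hands substrates to mortalin, had 127.6 to 186.8 CPM in DMSO (OA) and 154.2 to 210.5 in OA. In the TN experiment its range was 120.9 to 144.3 CPM in DMSO and 124.1 to 179.8 in TN. The ranges overlapped, and the log2 fold change was 0.20 in both comparisons, with edgeR adjusted p of 0.661 and 0.641. Scaling to total counts put it at -0.02 in OA, a scaling under which the median of all genes moved to -0.23.

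LONP1, the main soluble protease of the matrix, had the highest positive log2 fold change of the 10 members in both comparisons. It had 144.9, 252.4, and 154.4 CPM in DMSO (OA) and 267.6, 538.0, and 368.4 CPM in OA. The OA libraries were all above the DMSO libraries, though replicate 2 of DMSO came close to replicate 1 of OA. Its levels were 186.4, 128.7, and 123.9 CPM in DMSO (TN) and 373.0, 211.3, and 184.9 CPM in TN, where TN replicate 3 fell just under DMSO replicate 1. Each TN library exceeded the DMSO library of its number, by 1.0, 0.72, and 0.58 on the log2 scale. The log2 fold change was 1.09 ± 0.34 in OA, with an edgeR adjusted p of 0.106, and 0.81 ± 0.32 in TN, with 0.176, so neither passed. Under the replicate block, LONP1 was higher in both, by 1.08 ± 0.19 in OA and 0.77 ± 0.15 in TN. The edgeR adjusted p was 0.00344 in OA and 0.00740 in TN. Leaving out OA replicate 1 gave 1.29 and an adjusted p of 0.0493 in OA, while the other 5 libraries left out in turn gave 0.127 to 0.354, with a change of 0.77 without OA replicate 2 (0.172). Without TN replicate 1, the TN value was 0.48 (0.208). LONP1 also had the highest GC content of the members, 62.65%.

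CLPP and CLPX encode the peptidase and the unfoldase of ClpXP, the other soluble protease of the matrix. CLPP ranged from 42.6 to 74.96 CPM in DMSO (OA) and from 34.8 to 69.6 in OA, and from 33.5 to 57.3 CPM in DMSO (TN) and 27.4 to 58.8 in TN. CLPX had 34.7 to 47.9 CPM in DMSO (OA) and 17.2 to 46.5 in OA, and 37.4 to 50.7 CPM in DMSO (TN) and 24.5 to 54.9 in TN. All ranges overlapped. The log2 fold change of CLPP was -0.12 in OA and -0.16 in TN, and that of CLPX was -0.47 and -0.04, with edgeR adjusted p of 0.483 to 0.954. In OA, CLPX was at -0.98 without OA replicate 1 (edgeR adjusted p = 0.082) and at -0.18 without OA replicate 2 (0.793). The log2 ratio of CLPX to CLPP differed by -0.45 in OA (two-sided exact permutation p = 0.7, adjusted 0.9) and by 0.08 in TN (p = 0.9, adjusted 0.9). Within groups this ratio varied widely, from -2.02 to 0.42 in OA and from -1.26 to 0.97 in TN.

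AFG3L2 and YME1L1 are ATP-dependent proteases of the inner membrane, AFG3L2 facing the matrix and YME1L1 facing the intermembrane space. AFG3L2 had 181.2, 233.2, and 172.8 CPM in DMSO (OA) and 110.8, 126.8, and 126.7 CPM in OA. In the TN experiment it had 203.5, 161.9, and 178.3 CPM in DMSO and 117.5, 111.2, and 117.8 CPM in TN. Treated libraries were below DMSO libraries throughout, with a narrow spread. The log2 fold change was -0.69 ± 0.23 in OA (edgeR adjusted p = 0.120) and -0.65 ± 0.19 in TN (0.0807). The replicate block gave -0.68 ± 0.19 in OA (edgeR adjusted p = 0.0252) and -0.64 ± 0.14 in TN (0.0124). In the annotation, 11.73% of all AFG3L2 exon bases, and 23.86% of its canonical transcript, face TUBB6 on the other strand. YME1L1 had overlapping ranges, 235.2 to 282.1 CPM in DMSO (OA), 188.5 to 327.7 in OA, 279.9 to 313.6 in DMSO (TN), and 202.4 to 339.3 in TN. Its log2 fold change was 0.01 in OA and -0.05 in TN.

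**Figure D3:**
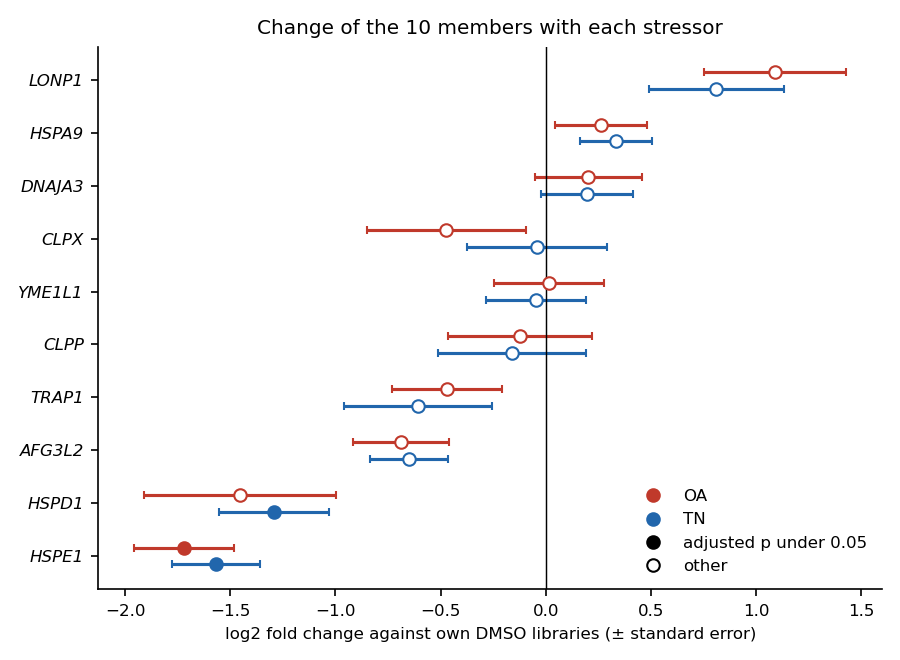
Log2 fold change of each member against its own DMSO libraries with the standard error as bars; filled points have an edgeR adjusted p under 0.05. HSPE1 was called in both comparisons and HSPD1 in TN, both at negative values, and LONP1 had the highest positive value in both.

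With the replicate block, 5 of the 10 members passed in TN, where 27.1% of all genes did (11.8% higher and 15.3% lower). HSPD1 (-1.34, edgeR adjusted p = 0.00201), HSPE1, AFG3L2, and TRAP1 were lower, and LONP1 was higher. In OA the block called 3 members lower, HSPD1 (-1.66, edgeR adjusted p = 0.00468), HSPE1, and AFG3L2, beside 2201 of 14681 genes. It called 1 member higher there, LONP1, beside 1713 genes. A GC offset, which removes from each library the smooth dependence of counts on GC content, called 4 of 10 members in OA, where 17.2% of all genes passed (9.07% higher and 8.08% lower). They were HSPD1 (-1.28, edgeR adjusted p = 0.0185), HSPE1 (-1.30, 0.0205), and AFG3L2 (-0.79, 0.0183), all lower, and LONP1 (0.92, 0.0172), higher. The block and the GC offset together called 6 of 10 members in TN, where 38.7% of all genes passed (18.9% higher and 19.7% lower). HSPA9 was higher in that fit (0.55, edgeR adjusted p = 0.000383), as was LONP1 (0.65, 0.000573), while HSPD1, HSPE1, TRAP1, and AFG3L2 were lower. With the offset alone, HSPA9 was at 0.54 in OA (0.108) and 0.55 in TN (0.0939). The offset also takes out any part of a treatment's own effect that follows GC content. The 5 members of GC content under the median of 48.9% of tested genes, which are HSPE1, YME1L1, CLPX, HSPD1, and HSPA9, moved up under the offset in both comparisons.

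**Figure D4:**
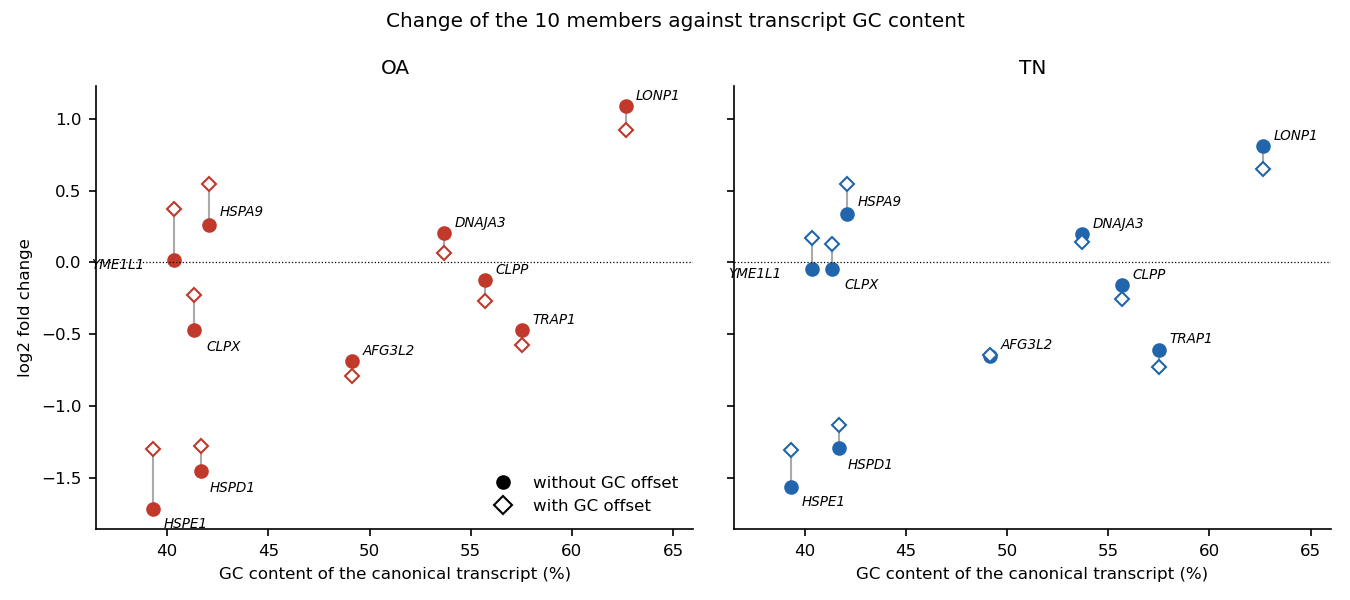
Log2 fold change of the members against the GC content (%) of their canonical transcript, without (filled circles) and with (open diamonds) a GC offset. HSPE1 at 39.32% moved from -1.72 to -1.30 in OA, and LONP1 at 62.65% from 1.09 to 0.92.

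The difference between the effects of OA and TN was tested as a contrast over the 12 libraries. By the main test, none of the 15429 tested genes passed (0%), with 348 at an unadjusted p under 0.05, and DESeq2 also called 0, with 556. With no filter 25 genes passed, and 4 passed with the block and GC offset or without OA replicate 2, with no member among them. For the members, the OA effect minus the TN effect ran from -0.49 ± 0.58 (SE) for CLPX to 0.21 ± 0.46 for LONP1 on the log2 scale. It was -0.21 ± 0.61 for HSPD1 and -0.22 ± 0.32 for HSPE1. In the main fit, each member's standard error was larger than its difference. Without OA replicate 1, the CLPX difference was -1.07 ± 0.50, with an edgeR adjusted p of 0.904, and without OA replicate 2 it was -0.19 ± 0.53. A difference between the agents was therefore not detectable for the members in these libraries.

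A list of 7 genes that regulate or relay the UPRmt or the integrated stress response was set beside the members. In each comparison, 3 of the 7 rose, where 2.76% of all genes rose in OA and 3.65% in TN, and they were DDIT3, CEBPB, and ATF4. DDIT3 had 7.73 to 9.68 CPM in DMSO (OA) and 219.8, 574.0, and 178.8 CPM in OA, and 10.7 to 21.7 CPM in DMSO (TN) against 409.0, 305.3, and 309.4 CPM in TN. Its log2 fold change of 5.23 in OA and 4.33 in TN (edgeR adjusted p = 0.010 and 0.00240) came with no overlap. Without OA replicate 2, the highest value of the 7 genes in OA was 4.53, and the same 3 were called higher, beside 3.16% of all genes. CEBPB changed by 2.21 in OA and 1.51 in TN, with adjusted p of 0.0250 and 0.0206. ATF4 had 460.3 to 613.8 CPM in DMSO (OA) and 1126.4 to 1574.5 in OA, a log2 fold change of 1.38 (0.0280), and changed by 1.46 in TN (0.00906). These 3 factors also serve the response to ER stress and to amino acid shortage.

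ATF5, a factor studied as a regulator of the UPRmt, was low, with 1.56 to 4.39 CPM in the DMSO libraries. It had 4.72, 6.19, and 7.05 CPM in OA and 8.85, 3.23, and 3.95 CPM in TN. Its log2 fold change of 0.93 in OA and 0.98 in TN did not pass, with edgeR adjusted p of 0.184 and 0.287. In OA the unadjusted edgeR p of ATF5 was 0.036, and the groups did not overlap, as for 31.8% of all genes. In TN the unadjusted p was 0.092, and the groups overlapped. HSF1, the regulator of heat shock genes, was at 0.35 in OA and 0.17 in TN on the log2 scale, with adjusted p of 0.548 and 0.837. EIF2AK1 (HRI) and DELE1, which relay mitochondrial stress to the integrated stress response, did not pass either, with log2 fold changes from -0.26 to 0.27.

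Other chaperones and proteases of mitochondria did not rise in either comparison by the main test. Of 11 tested chaperones and folding factors, 0 passed in OA or TN, beside 4.48% and 6.99% of all genes. Their median log2 fold change was -0.07 in OA and -0.14 in TN. GRPEL1, the nucleotide exchange factor of mortalin, was at -0.26 in OA and -0.47 in TN, with edgeR adjusted p of 0.551 and 0.174. DESeq2 called 0 of them in OA and in TN as well. At an unadjusted p under 0.05, PHB alone passed in OA, at -0.90 on the log2 scale. In TN, GRPEL1 and PHB (-0.76) passed that level at lower values and PAM16 at a higher one (1.41, edgeR adjusted p = 0.193), with a mean of 0.580 CPM in DMSO and 1.58 in TN. With the replicate block in TN, PHB, CLPB, and GRPEL1 were lower and 0 were higher, beside 15.3% and 11.8% of all genes. Adding the GC offset gave 4 lower and 3 higher (GRPEL2, TIMM44, and DNAJC19), beside 19.7% and 18.9%. Of 14 other mitochondrial proteases, 0 passed in OA, beside 4.48% of all genes. PMPCA, MIPEP, and ATP23 were lower there at an unadjusted p under 0.05. DESeq2 called PMPCA lower in OA, where it called 4.15% of all genes lower. In TN, 1 of the 14 fell, beside 3.34% of all genes. This was MIPEP, which trims imported precursors, with 59.2 ± 2.96 CPM (SD, n = 3) in DMSO and 29.6 ± 1.17 in TN, a change of -1.001 on the log2 scale (edgeR adjusted p = 0.0222). SPG7, the partner of AFG3L2, was at -0.32 in OA and -0.35 in TN. OMA1 was at -0.33 and -0.03, and HTRA2 at -0.54 and -0.27, none of them past the main test. Under the block in TN, MIPEP, PMPCA, and ATP23 were lower, 3 of 14 beside 15.3% of all genes. The block with the GC offset called 6 lower in TN, HTRA2 and SPG7 among them, and 0 higher, beside 19.7% and 18.9%. With the offset alone, PMPCA, MIPEP, and HTRA2 were lower in OA, 3 of 14 beside 8.08%. In TN the offset called 4 lower, MIPEP, PMPCA, ATP23, and SPG7, beside 1659 of 14432 genes. Both together called 4 lower in OA, with ATP23 added, beside 1888 of 14681 genes.

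Chaperones of other compartments give a scale for the members. Of 10 ER chaperones, 1 rose in OA, beside 2.76% of all genes, and 8 rose in TN, beside 3.65%. DESeq2 called 3 higher in OA (HSPA5, HYOU1, and DNAJB9), beside 5.84% of all genes, and the GC offset called the same 3, beside 9.07%. In TN, DESeq2 called 9 higher, beside 5.56%. With the block all 10 rose in TN, beside 11.8%. HSPA5 (BiP), the ER HSP70, went from 164.6, 138.2, and 157.0 CPM to 604.3, 2083.3, and 577.1 CPM in OA, and from 154.3, 171.7, and 162.3 CPM to 1408.1, 1186.3, and 1037.7 CPM in TN. The groups were far apart in both experiments, and OA replicate 2 was the highest of all libraries. Its log2 fold change was 2.83 in OA (edgeR adjusted p = 0.0301) and 2.90 in TN (0.00240). In TN, HYOU1 changed by 2.53 (0.00240), PDIA4 by 2.18 (0.00301), CRELD2 by 2.49 (0.00313), and CALR by 2.02 (0.00389). HSP90B1, the ER HSP90, was at 0.20 in OA (0.798) and rose by 2.07 in TN (0.0424). The median log2 fold change of the 10 was 0.62 in OA and 2.13 in TN. Without OA replicate 2, HSPA5 and HYOU1 rose in OA, where 3.16% of all genes rose, and no ER chaperone then exceeded 2.025 on the log2 scale. Without TN replicate 1 all 10 rose in TN, where 7.26% of all genes did.

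The ER and mitochondrial HSP70 transcripts were also set against each other within libraries. The log2 ratio of HSPA5 to HSPA9 was -2.19, -2.40, and -2.12 in DMSO (OA) and -0.64, 1.54, and -0.70 in OA. In DMSO (TN) it was -2.45, -2.16, and -2.34, and in TN 0.57, 0.14, and 0.0025. The difference was 2.31 in OA and 2.55 in TN, each with a two-sided exact permutation p of 0.1, the smallest this design can give, and 0.267 after adjustment over 8 tests. For the HSP90 pair, HSP90B1 to TRAP1, the log2 ratio differed by 0.59 in OA (exact permutation p = 0.6, adjusted 0.9) and by 2.59 in TN (p = 0.1, adjusted 0.267). Groups overlapped for this pair in OA and not in TN.

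None of 10 cytosolic chaperones rose in OA or TN, and their median log2 fold change was -1.26 in OA and -1.30 in TN. At an unadjusted p under 0.05 there were none higher either, nor by DESeq2. HSPA8, the constitutive cytosolic HSP70, fell in both, by 1.44 in OA (edgeR adjusted p = 0.0317) and by 1.27 in TN (0.0155). HSPA1B fell by 1.73 in OA (0.0219) and by 1.67 in TN (0.00585), and since HSPA1A is a near-identical copy, its reads cannot be assigned with certainty. HSP90AA1 was at -1.90 in OA (0.0819) and fell by 2.01 in TN (0.00780), and DNAJA1, at -1.57 in OA (0.0551), fell by 1.34 in TN (0.0453). These were all the calls of the main test, 2 of 10 in OA, beside 1.72% of all genes, and 4 of 10 in TN, beside 3.34%. DESeq2 called 7 lower in OA and 6 in TN, beside 4.15% and 5.56% of all genes. The GC offset called 7 lower in OA, beside 8.08%, and the block called 8 lower in TN, beside 15.3%. Without OA replicate 2 there were 6 lower in OA, beside 2.37% of all genes, and without TN replicate 1 there were 7 in TN, beside 8.54%. The fitted changes of HSPD1 and HSPE1 lay in the range of the cytosolic chaperones and outside that of the ER chaperones.

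**Figure D5:**
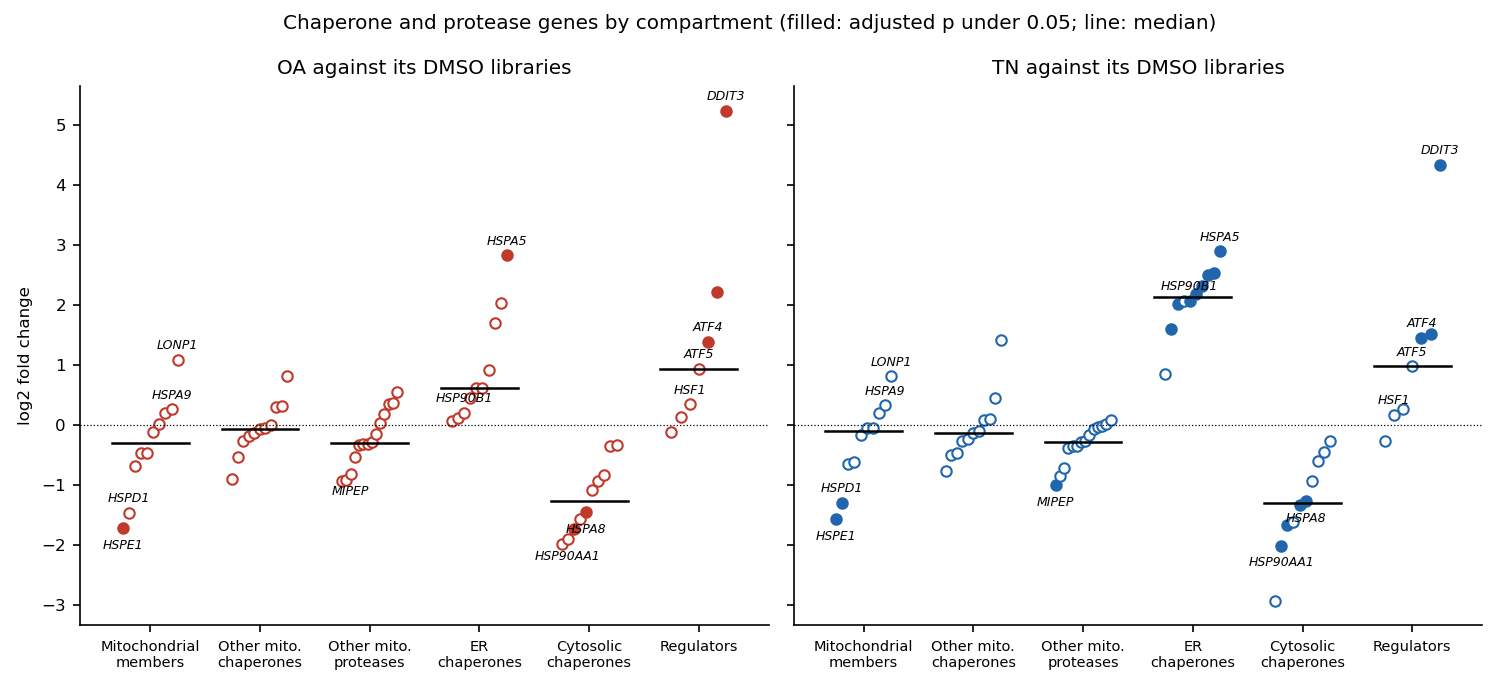
Log2 fold change of each tested gene, by list, in OA and in TN; filled points have an edgeR adjusted p under 0.05 and bars are list medians. In TN, 8 of 10 ER chaperones and 3 of 7 regulators were called higher, cytosolic chaperones lay below 0 in both panels, and the members ran from -1.72 to 1.09 in OA and from -1.57 to 0.81 in TN.

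Genes whose levels over the 12 libraries were most like those of HSPD1 and LONP1 were looked up among 14070 genes, after each gene had been centred on the DMSO mean of its own experiment. For HSPD1 they were GPAM, DBR1, and NKRF, with a root mean square difference of 0.14 to 0.16 in log2 CPM, against a median of 1.21 over all genes. For LONP1 they were ALKBH7, RNF5, and EIF4EBP1, at 0.11, against a median of 0.93. All genes were compared over the same 12 libraries, which differ in depth and in their dependence on GC content, and the likeness is a description without a test.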

How the data were processed

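RNA-seq libraries of HCT116 cells treated for 24 h with OA, TN, or DMSO were analysed, 3 per group, with groups and replicate numbers from the labels. The authors aligned reads to hg38 and counted them per gene with STAR 2.7.9 and the Gencode 32 annotation, and the deposited counts are raw. The deposited tables of log2 fold changes, p-values, and normalized means from the authors' DESeq2 comparison were not used. Every column of the count tables was assigned to a library.

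Counts were normalized by TMM, filtered with filterByExpr, and tested in R 4.3.3 with edgeR 4.0.16 (quasi-likelihood, two-sided), 1 fit per agent, and p-values were adjusted over all genes of a fit by the Benjamini-Hochberg method. Standard errors were derived from the log2 fold change and its F statistic. Levels are CPM on TMM library sizes, and ratios use counts plus 0.5. Library totals were 9884124 to 24983573, and members had 172 to 35320 counts per library. No pair of libraries of 1 group agreed within sampling noise (chi-square of at least 6.25 per gene). Scripts were tested on simulated counts. P-values measure the spread between these libraries, which may be technical.

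Same-numbered TN and DMSO libraries deviated together from their group means, with correlations across genes of 0.64, 0.41, and 0.43, which was taken as pairing by number. Nothing in the labels besides the numbers supports it. Libraries 2 and 3 also deviated together (0.38 and 0.44), so the correlations set replicate 1 apart but do not tell pair 2 from pair 3. Replicate 1 also stood apart in GC dependence, with Spearman correlations of 0.60 in DMSO (TN) and 0.76 in TN. Those of replicates 2 and 3 ran from -0.69 to -0.42. The part of GC content in this pairing was not tested.

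Gene positions, lengths, and GC content came from Gencode 44 (hg38), with a GC value for 99.8% of tested genes, and promoter sequences from RefSeq (GRCh38.p14). GC offsets were smooth curves (span 0.3) fitted per library to genes with a mean count of at least 20. The other alternatives were DESeq2 1.42.0, scaling to total counts or by DESeq2's size factors, a minimum of 10 counts per library or no filter, 1 fit of all 12 libraries, the replicate block with and without GC offset, and leaving out each library.

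The members, lists, and tests were chosen with earlier results of these data known. The text names all members, 12 preset genes, at most 5 called genes per list with the lowest p, the 3 genes most like HSPD1 and LONP1, and genes that a count of 5 or fewer made it necessary to name.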

Additional observations from a re-analysis of the deposited data

How the results depend on the processing

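In OA, 3 members were called with DESeq2, with no filter, or with all 12 libraries in 1 fit, 4 with the replicate block or the GC offset, and 6 with both, against 1 in the report. In TN, 5 were called with the block or the GC offset, 6 with both, 3 with total counts (AFG3L2 added, -0.80, adjusted p = 0.0343), and 1 with all 12 libraries in 1 fit, against 2. Leaving out single libraries gave 0 to 3 members in each comparison. HSPE1 was called lower in all 9 other settings for OA and for TN. HSPD1 was called lower in 8 of 9 for TN, with 0.0963 as the adjusted p in the fit of 12 libraries, and in 6 of 9 for OA. The median of the members with total counts was -0.49 in OA and -0.26 in TN, where the median of all genes was -0.23 and -0.18, and without single libraries it ran from -0.36 to -0.10 in OA and from -0.23 to -0.093 in TN. All genes called were 658 in OA, 1630 with DESeq2, 1572 with no filter, 3914 with the block, 2518 with the GC offset, 3773 with both, and 1681 with all 12 libraries, and 1009 in TN against 1737, 1648, 3915, 3380, 5579, and 1347 for these settings in the same order, and 1404 with total counts. Without single libraries they ran from 3 to 1179 in OA and from 151 to 2361 in TN.

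Same-numbered OA and DMSO libraries had correlations of deviations of 0.63, 0.54, and 0.09, so that replicates 1 and 2 deviated together by number and replicate 3 hardly did. Each OA library correlated best with the DMSO library of its number, while DMSO (OA) replicate 3 correlated best with OA replicate 1, at 0.15. The replicate block added HSPD1, LONP1, and AFG3L2 to the calls in OA, and raised the count of all genes called from 658 to 3914. With the GC offset as well, TRAP1 was also called lower in OA (-0.58, adjusted p = 0.0451) and HSPA9 higher (0.55, 0.0296). The block called 3 ER chaperones higher and 7 cytosolic chaperones lower in OA, beside 1713 higher and 2201 lower of 14681 genes. Of the 10 ER chaperones, all had positive values in OA with the main test and 7 did without OA replicate 2. In TN the block changed no other call of a member than those given in the report.

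Some directions turned. In OA, with total counts, DNAJA3 was at -0.021 and YME1L1 at -0.14, and YME1L1 was at -0.017 with the block and -0.037 with all 12 libraries. In TN, the GC offset put CLPX at 0.13 and YME1L1 at 0.17, or 0.12 and 0.18 with the block as well. For the OA effect minus the TN effect, CLPP was at 0.027 with DESeq2, 0.030 with its size factors, and 0.036 with no filter, DNAJA3 at 0.0095 with no filter, and YME1L1 at 0.056 (DESeq2), 0.056 (its size factors), 0.026 (total counts), 0.078 (no filter), 0.20 (GC offset), and 0.20 (block and GC offset). Without single libraries, the ranges that crossed 0 were -0.44 to 0.20 for CLPP and -0.23 to 0.20 for YME1L1 in OA. In TN they were -0.53 to 0.067 for CLPP, -0.23 to 0.30 for CLPX, and -0.21 to 0.19 for YME1L1. For the difference they were -0.73 to 0.19 for HSPD1, -0.27 to 0.018 for HSPA9, -0.16 to 0.60 for TRAP1, -0.19 to 0.21 for DNAJA3, -0.043 to 0.65 for LONP1, -0.31 to 0.44 for CLPP, -0.31 to 0.23 for YME1L1, and -0.24 to 0.13 for AFG3L2. For ratios they were -0.26 to 0.51 for HSPD1/HSPE1 in OA, and -1.08 to 0.14 in OA and -0.32 to 0.80 in TN for CLPX/CLPP. For the other ratios, the ranges were 0.12 to 0.42 for HSPD1/HSPE1 in TN, 0.024 to 0.96 in OA and 2.10 to 3.54 in TN for HSP90B1/TRAP1, 1.57 to 2.69 in OA and 2.39 to 2.67 in TN for HSPA5/HSPA9, and -2.27 to -1.46 in OA and -1.82 to -1.44 in TN for HSPD1/HSPA9. The cause of these shifts was not tested. No alternative varied the depth.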
